A study of Homo sapiens with 24 samples.

Results

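The molecular circadian clock was represented by 10 genes, BHLHE40, BHLHE41, PER1, PER2, PER3, CRY1, CRY2, ARNTL, CLOCK and NR1D2, which were selected by gene symbol among the 23106 symbols counted in each library. All 10 had a row in every library, with a count of 0 only for BHLHE41 in 1 T47D library, and all 10 passed the filter on low counts in each line. BHLHE41 in T47D cells passed it only through the hypoxic group, since 3 of 3 hypoxic and 1 of 3 normoxic libraries lay above the filter. Its test in that line is thus not given as support. The counts came from polyadenylated RNA of 4 cancer cell lines, A549 (lung), HCT-116 (colorectal), PC3 (prostate) and T47D (breast). Cells of each line were kept in 21% O2 (normoxia) or in 0.5% O2 for 16 h (hypoxia), with 3 libraries in each of the 8 groups and 24 libraries in all. A549 and PC3 cells were grown in F12K medium, HCT-116 cells in McCoy's 5a and T47D cells in DMEM, with serum, glutamine and antibiotics in every group, and no gene was altered and no drug given. Each line is a single established tumor line, and the labels do not say whether the 3 libraries of a group came from separate cultures, so that p-values measure the spread between these libraries, which may be technical. All hypoxic cells were harvested after the same exposure, and levels at other clock times were not measured.

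CLOCK and ARNTL (also called BMAL1) are transcription factors of the basic helix-loop-helix PAS family that bind E-boxes together and drive transcription of the PER, CRY and NR1D genes. PER and CRY proteins feed back to inhibit CLOCK and ARNTL, NR1D2 (REV-ERB beta) represses ARNTL, and BHLHE40 (DEC1) and BHLHE41 (DEC2) are repressors that occupy E-boxes themselves. The hypoxia-inducible factors (HIFs) belong to the same protein family as CLOCK and ARNTL, and their response elements hold a core of ACGTG or GCGTG. Of these, only ACGTG lies within the E-box letters CACGTG.

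BHLHE40 had the largest rise of the 10 genes in A549, HCT-116 and PC3 cells, so the 250 bases before its transcript start are shown. They lie at chr3:5020872-5021121 on the plus strand (GRCh37), share no base with an annotated exon, and are written 5′ to 3′ with the E-box CACGTG and each match to ACGTG on either strand in capitals. The sequence comes from the RefSeq promoter table (GRCh38.p14) and was placed on GRCh37 by exact match.
BHLHE40: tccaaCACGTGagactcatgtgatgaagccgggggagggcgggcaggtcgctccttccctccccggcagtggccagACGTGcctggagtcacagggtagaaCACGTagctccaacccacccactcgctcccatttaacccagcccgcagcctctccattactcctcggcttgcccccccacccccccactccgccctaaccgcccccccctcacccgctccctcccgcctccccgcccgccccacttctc
The window held 1 E-box, whose first base lay 245 bases before the start, and 4 matches to ACGTG. Of these, 2 overlap each other inside the E-box and the others begin 174 and 149 bases before the start. GCGTG was not found in it.

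All 10 genes had an entry in that table, with 15 windows between them, and an E-box was found in those of BHLHE40, BHLHE41, PER1 and the second start of NR1D2. The stretches of 30 bases around the other E-boxes are given to show how far the shared letters reach, with CACGTG in capitals.
BHLHE41 (chr12:26278001-26278030, minus strand): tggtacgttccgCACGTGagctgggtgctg
PER1 (chr17:8055878-8055907, minus strand): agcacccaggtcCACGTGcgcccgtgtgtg
NR1D2, first E-box (chr3:23987445-23987474, plus strand): ggcgggcggggaCACGTGaggccgctcggc
NR1D2, second E-box (chr3:23987495-23987524, plus strand): gggccgcagggaCACGTGggggcgggggcg
The first E-box base lay 48 bases before the start in BHLHE41, 173 in PER1, and 155 and 105 in NR1D2. Among 35116 windows of the same length, 6.34% held CACGTG, 18.5% held ACGTG, 32.2% held GCGTG and 43.2% held either of the latter 2, counting both strands. ACGTG without an E-box was found in PER2, in CRY1 and at the second starts of CRY2 and CLOCK. PER3 held GCGTG at both its starts, without ACGTG or an E-box. None of these letters were found in either window of ARNTL or in the first windows of CRY2, CLOCK and NR1D2. In the PER2 window 216 bases lay in annotated exons, and 126 in the second window of CRY2. The CRY1 window and the second window of CLOCK shared no base with an annotated exon. A match describes the letters only, and binding was not measured here.

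**Figure D1:**
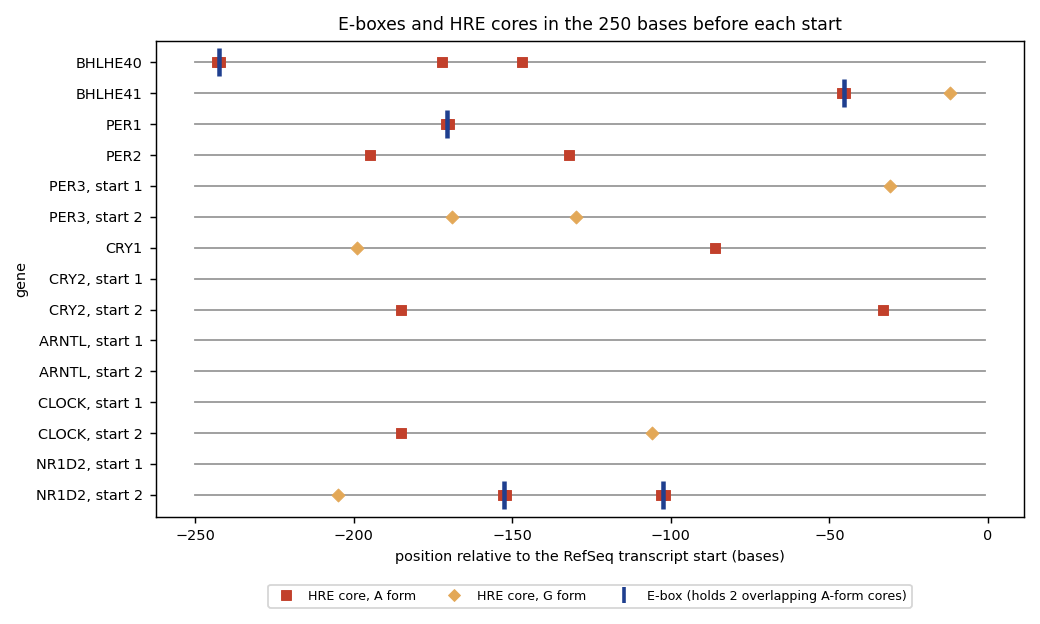
Matches to the E-box and to the A form (ACGTG) and G form (GCGTG) of the hypoxia response element (HRE) core in the 250 bases before each RefSeq start of the 10 genes, plotted by distance from the start in bases. E-boxes lie in the windows of BHLHE40, BHLHE41, PER1 and the second start of NR1D2, and each holds 2 overlapping A-form matches.

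Library totals ranged from 22698584 to 62850747 counts (median 56109795.5), and a floor of 3 counts corresponded to 0.0436 to 0.132 CPM, where CPM are counts scaled to library size by TMM. The mean correlation of a library with the others of its group was lowest, 0.969, in T47D hypoxia replicate 3, and no pair of libraries held identical counts. Of 6 hypoxia marker genes, 6 were upregulated in A549 (17.6% of all genes), HCT-116 (23.3%) and T47D cells (6.55%) and 5 in PC3 cells (16.6%). CA9, named after its values were seen, had a log2 fold change of 14.0 (SE 0.508) in T47D cells. A change of that size depends on its normoxic counts, which are not given here, so that test is not given as support. PDK1, named after its values were seen, was not called in PC3 cells (log2 fold change 0.11, edgeR adjusted p = 0.496). NDRG1 and ADM are in a gene set that the study chose in part on these libraries, so their direction is not independent evidence. The 4 breast markers summed to 1281 to 2020 CPM in T47D cells. By contrast, the 4 lung markers summed to only 0.121 to 0.688 CPM in A549 cells, the prostate markers KLK3 and FOLH1 were at or under the floor in PC3 cells, and the colorectal markers CDX1 and LGR5 in HCT-116 cells, whose 5 colorectal markers summed to 10.4 to 23.3 CPM against 10.2 to 19 CPM in A549 cells.

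Genes were called where edgeR's quasi-likelihood test gave an adjusted p under 0.05 with a change of over 1.2 times, adjusted over all genes tested in the line. In A549 cells, 2 of the 10 clock genes were upregulated and 1 was downregulated, where 17.6% and 17.8% of all genes tested were. In HCT-116 cells the counts were 5 and 2 (23.3% and 27% of all genes), in PC3 cells 4 and 2 (16.6% and 15.7%), and 1 and 0 in T47D cells (6.55% and 6.69%). In T47D cells 1 of the 10 genes was lower at an unadjusted p under 0.05, and DESeq2 called 1 lower. These fits did not pair libraries by replicate number. With that number as a block, edgeR called CRY1 lower in T47D cells (adjusted p = 0.0243). Across the 10 genes, the median change was 0.17, 0.33, 0.20 and 0.02 on the log2 scale in the same order of lines, beside -0.01, -0.03, -0.01 and -0.02 over all genes. The 3 hypoxic libraries all lay above the 3 normoxic ones for 4 of the 10 genes in A549 (23.6% of all genes), 5 in HCT-116 (32.8%), 5 in PC3 (28.4%) and 2 in T47D cells (19%), and all below for 1 (24.3%), 2 (27.6%), 2 (22.2%) and 0 (13.3%). BHLHE40 was upregulated in 4 of 4 lines, and CRY1 was downregulated in 3 by the unpaired fits.

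**Figure D2:**
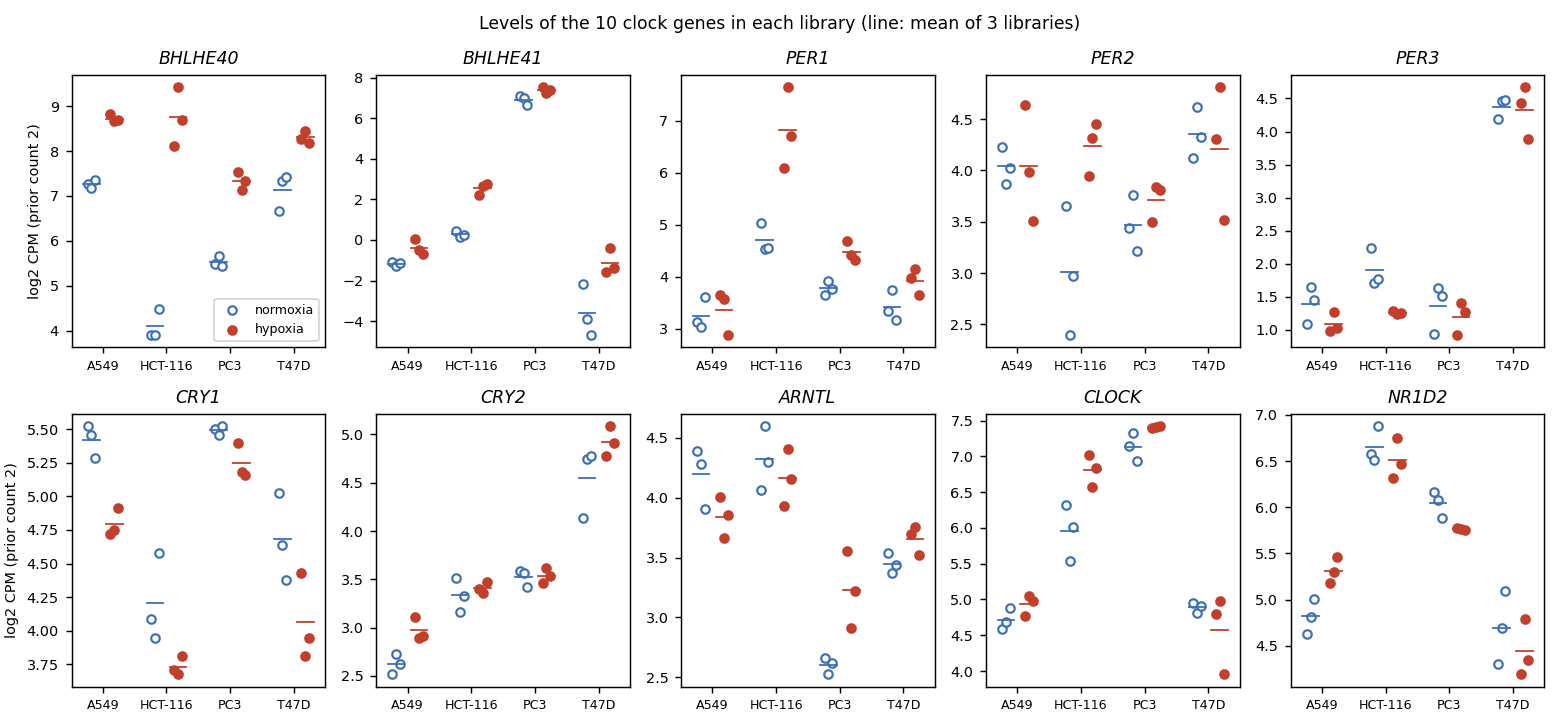
Level of each clock gene in each of the 24 libraries, as log2 CPM with a prior count of 2, by line and oxygen state, with a line at the mean of 3 libraries. BHLHE40 libraries of hypoxia sit above those of normoxia in all 4 lines, and BHLHE41 is high in PC3 cells in both states.

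BHLHE40, the E-box repressor DEC1, was upregulated in every line, most in HCT-116 cells. In HCT-116 cells its level was 14.9, 15.0 and 22.4 CPM in normoxia and 278, 690 and 416 CPM in hypoxia. It rose from 154, 146 and 165 to 453, 407 and 411 CPM in A549 cells. In PC3 cells it rose from 44.5, 50.3 and 43.6 to 184, 141 and 162 CPM. In T47D cells, where normoxia replicate 1 was the lowest of its group, it rose from 102, 161 and 170.4 to 311, 349 and 291 CPM. No hypoxic library overlapped the normoxic range in any line. HCT-116 cells, which had the lowest normoxic level, reached 278 to 690 CPM in hypoxia, a range that spans the 407 to 453 CPM of A549 cells. Hypoxic levels were not tested between lines. The log2 fold change was 1.45 (SE 0.108, adjusted p = 3.205e-06) in A549, 4.61 (SE 0.331, adjusted p = 4.885e-06) in HCT-116, 1.76 (SE 0.115, adjusted p = 7.754e-05) in PC3 and 1.06 (SE 0.23, adjusted p = 0.0131) in T47D cells. Larger rises were measured for 6 of 13614 genes in HCT-116 cells, for 105 of 13466 in PC3, 293 of 13897 in A549 and 801 of 14085 in T47D cells. Among 11734 genes tested in all lines, 2.58% were upregulated in all 4. BHLHE40 is in a gene set that the study chose in part on these libraries, so its direction is not independent evidence. Without T47D normoxia replicate 1, the rise in T47D cells was 0.87 with an adjusted p of 0.11, and the call was lost. In the annotation, 451 exonic bases of BHLHE40 overlap the antisense transcript BHLHE40-AS1, whose own row was not found among the counts used here. The gene spans chr3:5021122-5027008 on the plus strand (GRCh37), with 5 exons.

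The rise of BHLHE40 differed between lines (interaction in 1 edgeR fit of all 24 libraries, adjusted p = 5.397e-07). In that fit, the log2 fold change of HCT-116 cells exceeded that of A549 by 3.27 (SE 0.336, adjusted p = 3.397e-06), that of PC3 by 2.91 (SE 0.335, adjusted p = 1.168e-05) and that of T47D by 3.59 (SE 0.338, adjusted p = 4.535e-07). Differences among the other 3 lines lay between -0.36 and 0.68 and did not pass the test (adjusted p from 0.366 to 0.825). Normoxic levels ran in the order A549, T47D, PC3 and HCT-116. A549 and T47D did not differ beyond their spread (0.10 on the log2 scale, adjusted p = 0.723), whereas T47D and PC3 differed by 1.65 (adjusted p = 1.291e-06) and PC3 and HCT-116 by 1.40 (adjusted p = 1.435e-05). HCT-116 hypoxia replicate 2 had the highest level of BHLHE40, and without that library the log2 fold change was 4.23.

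BHLHE41, the paralog DEC2, was high in PC3 cells and low in the others, at under 7 CPM in every library of HCT-116 and under 1 CPM in those of A549 and T47D cells. In PC3 cells the level was 135, 126 and 100.6 CPM in normoxia and 186, 153 and 167 CPM in hypoxia, whereas in A549 cells it was 0.433, 0.376 and 0.415 CPM in normoxia. The normoxic difference between PC3 and HCT-116 cells, the next in the order, was 6.68 on the log2 scale (adjusted p = 4.648e-15), and all neighbours in the order PC3, HCT-116, A549 and T47D differed (adjusted p = 0.000462 between HCT-116 and A549, and 0.000119 between A549 and T47D). The step from A549 to T47D rests on 8, 2 and 0 normoxic counts in T47D cells and is not given as support.

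In HCT-116 cells BHLHE41 rose from 1.31, 1.07 and 1.13 CPM to 4.66, 6.32 and 6.79 CPM (log2 fold change 2.21, SE 0.299, adjusted p = 0.000156). The rise in PC3 cells was smaller, at 0.44 (SE 0.119, adjusted p = 0.021), and it no longer passed without hypoxia replicate 1 (0.36, adjusted p = 0.0837) or hypoxia replicate 3 (0.45, adjusted p = 0.0561). Both lines showed no overlap between states. In A549 cells the libraries were also separate, at 0.583 to 0.997 CPM in hypoxia, but the log2 fold change of 0.87 (95% interval -0.02 to 1.76, adjusted p = 0.117) did not pass. In T47D cells, normoxic libraries had 8, 2 and 0 counts and hypoxic libraries 18, 47 and 19. Summed, 84 hypoxic against 10 normoxic counts gave a ratio of 8.12 (95% counting interval 4.21 to 17.6, which covers counting error only). The log2 fold change of 2.73 (SE 0.936) had an adjusted p of 0.0698 in edgeR's test of this line, and of 0.0483 in DESeq2 and 0.000439 in the fit of all libraries. It ranged from 2.09, without normoxia replicate 3, to 4.68, without normoxia replicate 1, when a single library was left out (adjusted p from 0.063 to 0.247). The interaction test found the effects on BHLHE41 to differ between lines (adjusted p = 0.00336), with that of HCT-116 cells larger than that of PC3 by 1.84 (SE 0.375, adjusted p = 0.00335) and than that of A549 by 1.44 (SE 0.469, adjusted p = 0.0373). PC3 cells also rose less than T47D cells, by 2.45 (SE 0.61, adjusted p = 0.03). That difference rests on the 8, 2 and 0 normoxic counts of T47D cells and is not given as support. BHLHE41 spans chr12:26272963-26277970 on the minus strand, with 5 exons, and 162 of its exonic bases overlap SSPN on the opposite strand, which lay at 17.8 to 24.2 CPM in PC3 cells and at 3.06 CPM or less in the other lines, and its part in the level of BHLHE41 was not tested.

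Per kilobase of transcript, BHLHE40 had the highest level of the 10 genes in all 4 hypoxic groups. In normoxia it was first in A549 and T47D cells, the sixth in HCT-116 and the third in PC3 cells. NR1D2 was first in HCT-116 normoxia, at 19.4 ± 2.71 CPM per kb (SD, n = 3), and BHLHE41 in PC3 normoxia, at 32.1 ± 4.74. The ratio of BHLHE40 to BHLHE41 per kb in PC3 cells was 0.392, 0.476 and 0.515 in the normoxic libraries in rising order and 1.10, 1.15 and 1.18 in the hypoxic libraries, so that the order of the pair turned per kb. The turn rests on the transcript lengths used (3152 bases for BHLHE40 and 3743 for BHLHE41), since in CPM, without regard to length, BHLHE41 stayed above BHLHE40 in all 3 hypoxic libraries. In HCT-116 cells the same ratio was 13.5 to 23.5 in normoxia and 70.9 to 130 in hypoxia.

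**Figure D3:**
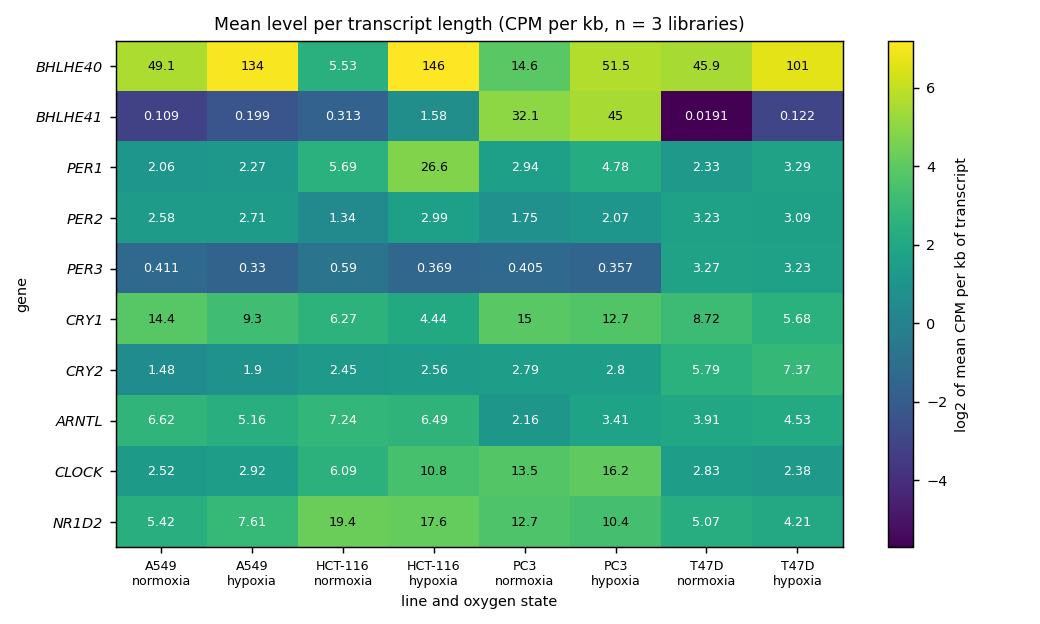
Mean CPM per kb of transcript of the 10 genes in the 8 groups (n = 3 libraries each), with the value in each cell and its log2 as color. BHLHE40 leads each hypoxic group, at 134 CPM per kb in A549, 146 in HCT-116, 51.5 in PC3 and 100.6 in T47D cells.

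PER1, PER2 and PER3 encode the period proteins, which join with CRY proteins to inhibit CLOCK and ARNTL. In HCT-116 cells PER1 was 32.9, 23.3 and 23.6 CPM in normoxia and 68.7, 201 and 104 CPM in hypoxia, with no overlap. The log2 fold change was 2.09 (SE 0.325, adjusted p = 0.000279), and it was 1.59 (adjusted p = 0.00014) without hypoxia replicate 2, which had the highest level. In PC3 cells PER1 rose from 12.6, 15.2 and 13.5 to 25.6, 21.4 and 20.02 CPM (log2 fold change 0.65, SE 0.128, adjusted p = 0.00646). The libraries overlapped in A549 cells (0.13, 95% interval -0.34 to 0.61) and in T47D cells (0.41, 95% interval -0.09 to 0.91), and neither passed. The effect on PER1 differed between lines (adjusted p = 0.00351). It was larger in HCT-116 than in A549 cells by 2.09 (SE 0.393, adjusted p = 0.00196), than in PC3 by 1.53 (SE 0.391, adjusted p = 0.0122) and than in T47D by 1.73 (SE 0.391, adjusted p = 0.00894). In normoxia PER1 was also highest in HCT-116 cells, by 0.95 over PC3 (adjusted p = 0.00438), and the 3 other lines did not differ beyond their spread (adjusted p from 0.117 to 0.595). In the annotation, 30 exonic bases of PER1 are shared with another gene model on the same strand (ENSG00000263620).

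PER2 was upregulated in HCT-116 cells, from 12.6, 5.23 and 7.83 CPM to 15.4, 19.95 and 21.9 CPM. Its log2 fold change was 1.03 (SE 0.293, adjusted p = 0.0104), and the libraries did not overlap. It was not called in the other lines, where the log2 fold change was 0.07 (95% interval -0.43 to 0.57) in A549, 0.18 (-0.16 to 0.53) in PC3 and -0.15 (-0.75 to 0.45) in T47D cells. The effect on PER2 was not shown to differ between lines (interaction adjusted p = 0.117).

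PER3 had its highest level in T47D cells, at 18.2, 21.9 and 22.2 CPM in normoxia, against 1.86 to 4.69 CPM in the normoxic libraries of the 3 other lines. T47D exceeded HCT-116 cells by 2.47 on the log2 scale (adjusted p = 1.32e-09), and HCT-116 differed from A549 and PC3 by less than the test could call (adjusted p of 0.0538 and 0.0529). In HCT-116 cells PER3 fell from 4.69, 3.22 and 3.35 CPM to 2.40, 2.32 and 2.34 CPM, while PER1 and PER2 rose. The log2 fold change of -0.80 (SE 0.295, adjusted p = 0.0367) did not pass without hypoxia replicate 1, 2 or 3 or without normoxia replicate 1 or 2 (log2 fold change -0.83 to -0.53, adjusted p from 0.0537 to 0.172). UTS2, which shares 868 exonic bases with PER3 on the opposite strand, had counts only in HCT-116 cells, at 0.311 to 3.42 CPM, and fell there by 2.39 on the log2 scale (adjusted p = 0.00151). Whether reads of UTS2 entered the count of PER3 was not tested. PER3 was not called in A549 (-0.33), PC3 (-0.25) or T47D cells (-0.10).

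CRY1 and CRY2 encode cryptochromes, the partners of PER proteins in the inhibitory complex. CRY1 was lower in hypoxia in all 4 lines and was downregulated, by the test, in 3. In A549 cells it fell from 45.9, 43.9 and 39.0 CPM to 26.3, 26.9 and 30.2 CPM (log2 fold change -0.63, SE 0.111, adjusted p = 0.00139), without overlap, and this call was kept when any of the 6 libraries was left out. In HCT-116 cells it fell from 17.0, 15.4 and 23.9 CPM to 13.01, 12.7 and 14.0 CPM (log2 fold change -0.61, SE 0.207, adjusted p = 0.0248). That call was lost without hypoxia replicate 1, 2 or 3 or normoxia replicate 3, the highest of its group (log2 fold change -0.61 to -0.38, adjusted p from 0.0701 to 0.17). It fell in PC3 cells from 45.2, 43.8 and 45.9 CPM to 42.1, 36.3 and 35.7 CPM (log2 fold change -0.29, SE 0.101, adjusted p = 0.048), and the call was lost without hypoxia replicate 2 or 3 or normoxia replicate 1 or 3 (log2 fold change -0.29 to -0.25, adjusted p from 0.0701 to 0.171).

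In T47D cells CRY1 was 32.6, 24.8 and 20.8 CPM in normoxia and 21.5, 14.0 and 15.4 CPM in hypoxia, and the groups overlapped by a single library each. This gave a log2 fold change of -0.71 (SE 0.241, adjusted p = 0.0693). With the replicate number as a block, which pairs same-numbered libraries, it was -0.70 with an adjusted p of 0.0243 and passed. Without normoxia replicate 3 it also passed (-0.86, adjusted p = 0.0339). The effects on CRY1 were not shown to differ between lines (interaction adjusted p = 0.549), and the largest difference between a pair of lines was 0.39 (SE 0.251).

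CRY2 was not called in any line, with log2 fold changes of 0.35 (95% interval 0.00 to 0.69, adjusted p = 0.107) in A549, -0.06 (-0.51 to 0.40) in HCT-116, -0.04 (-0.30 to 0.22) in PC3 and 0.27 (-0.18 to 0.72) in T47D cells. At an unadjusted p under 0.05 it would count in A549 cells, where its libraries did not overlap (5.68, 6.59 and 6.12 CPM in normoxia, 8.63, 7.38 and 7.497 CPM in hypoxia). The ratio of CRY1 to CRY2 per kb in A549 cells was 8.80 to 11.2 in normoxia and 4.22 to 5.56 in hypoxia. In T47D cells it was 1.05 to 2.56 in normoxia and 0.573 to 1.09 in hypoxia. The normoxic level of CRY2 was highest in T47D cells, by 1.06 over PC3 on the log2 scale (adjusted p = 4.208e-06), and lowest in A549 cells.

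**Figure D4:**
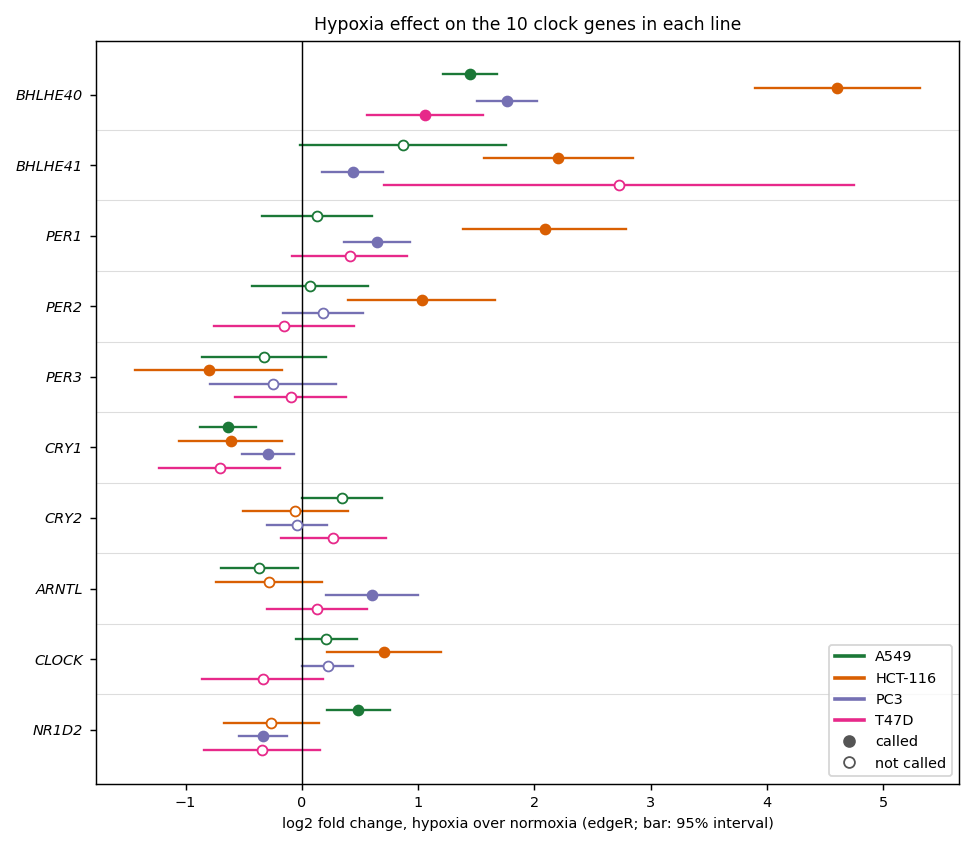
Log2 fold change of hypoxia over normoxia for the 10 clock genes in each line, with 95% intervals from edgeR and filled points for genes called. BHLHE40 in HCT-116 cells stands at 4.61, and all 4 points of CRY1 lie below 0.

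CLOCK and ARNTL encode the activating pair of the loop. ARNTL was upregulated in PC3 cells, from 6.30, 5.71 and 6.09 CPM to 11.7, 7.47 and 9.27 CPM, without overlap (log2 fold change 0.60, SE 0.179, adjusted p = 0.0289). This call was lost without hypoxia replicate 1 or 3 or normoxia replicate 1 or 2 (log2 fold change 0.42 to 0.64, adjusted p from 0.0517 to 0.103). In the other lines it was -0.37 (95% interval -0.70 to -0.04, adjusted p = 0.0791) in A549, -0.28 (-0.74 to 0.18) in HCT-116 and 0.13 (-0.30 to 0.56) in T47D cells. Without normoxia replicate 3, ARNTL in A549 cells passed as lower (-0.50, adjusted p = 0.0199). The effect on ARNTL differed between lines (interaction adjusted p = 0.0312), and of the 6 pairs of lines only PC3 and HCT-116 passed, with a difference of 0.81 (SE 0.264, adjusted p = 0.0397). The difference between A549 and PC3 cells was larger, at 1.02 with the same SE, but did not pass the adjustment made for that pair (adjusted p = 0.0729). In normoxia PC3 cells had the lowest level of ARNTL, below T47D by 0.85 (adjusted p = 0.000328), and A549 and HCT-116 did not differ beyond their spread (adjusted p = 0.559). An antisense transcript (ENSG00000290083) shares 421 exonic bases with ARNTL in the annotation.

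CLOCK was upregulated in HCT-116 cells, from 80.2, 46.3 and 64.8 CPM to 130.2, 94.7 and 114 CPM, without overlap (log2 fold change 0.71, SE 0.229, adjusted p = 0.0202). TMEM165, which overlaps 76 exonic bases of CLOCK on the opposite strand, fell in that line by 1.3 on the log2 scale (adjusted p = 0.000412), and its part in the count of CLOCK was not tested. In PC3 cells CLOCK was 141, 159.9 and 122 CPM in normoxia and 169, 171 and 171 CPM in hypoxia, which did not overlap, and the log2 fold change of 0.22 (95% interval 0.01 to 0.44, adjusted p = 0.104) did not pass. It passed without normoxia replicate 2 (0.30, adjusted p = 0.0314). It was 0.21 (95% interval -0.05 to 0.47) in A549 and -0.34 (-0.86 to 0.19) in T47D cells, where hypoxia replicate 3 stood apart at 15.5 CPM against 27.9 and 31.4 CPM. The test of a difference between all lines gave an adjusted p of 0.0518 for CLOCK, while that between HCT-116 and T47D cells alone was 1.08 (SE 0.287, adjusted p = 0.0224). Normoxic CLOCK was highest in PC3 cells, by 1.15 over HCT-116 (adjusted p = 2.647e-05), so that PC3 cells had the highest CLOCK and the lowest ARNTL of the 4 lines. The ratio of CLOCK to ARNTL per kb was 5.34 to 7.46 in PC3 normoxia, against 0.304 to 1.28 in the normoxic libraries of the other lines. In hypoxia it was 3.82 to 6.08 in PC3 cells. The paralog ARNTL2, named after its values were seen, was highest in PC3 cells. The normoxic mean of ARNTL2 was 260.5 CPM in PC3, 77.6 in A549, 43.7 in HCT-116 and 1.01 in T47D cells. The order was not reversed in full, since T47D cells lay below A549 and HCT-116 cells for both ARNTL and ARNTL2.

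NR1D2 encodes a heme-binding nuclear receptor that represses ARNTL. In A549 cells it rose from 24.7, 28.1 and 32.2 CPM to 36.3, 39.2 and 44 CPM (log2 fold change 0.48, SE 0.124, adjusted p = 0.0104), and the call was lost without normoxia replicate 1 (0.40, adjusted p = 0.0552). In PC3 cells it fell from 71.8, 67.7 and 59.1 CPM to 54.8, 54.4 and 53.7 CPM (log2 fold change -0.34, SE 0.092, adjusted p = 0.0213). The latter call was lost without hypoxia replicate 1, 2 or 3 or normoxia replicate 1 (log2 fold change -0.35 to -0.27, adjusted p from 0.0609 to 0.101). The libraries did not overlap in either line, and NR1D2 was the only one of the 10 genes called in both directions. A difference between lines was not shown by the test over all 4 (adjusted p = 0.0748), nor by that between A549 and PC3 cells (0.78, SE 0.257, adjusted p = 0.205). In HCT-116 cells (-0.26, 95% interval -0.67 to 0.15) and T47D cells (-0.34, -0.84 to 0.16) the libraries overlapped. NR1D2 was most abundant in HCT-116 cells in normoxia, by 0.62 over PC3 (adjusted p = 0.00452), and A549 and T47D did not differ beyond their spread (adjusted p = 0.661).

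The hypoxia effect thus differed between lines for 4 of the 10 genes, BHLHE40, BHLHE41, PER1 and ARNTL, where 18.3% of 16089 genes did. When the libraries of replicate 2 were left out, only BHLHE40 passed (adjusted p = 0.00101), with adjusted p of 0.271 for BHLHE41, 0.198 for PER1 and 0.288 for ARNTL, and 165 genes passed in place of 2940 over all genes. ARNTL also failed without the libraries of replicate 1 (adjusted p = 0.217) or replicate 3 (0.094). Between pairs of lines, the effect differed for 3 of the 10 genes in A549 against HCT-116 cells (16.7% of all genes), 4 in HCT-116 against PC3 (14.9%), 3 in HCT-116 against T47D (9.07%) and 1 in PC3 against T47D (2.25%). The gene that differed between PC3 and T47D was BHLHE41, on 10 normoxic counts in T47D cells. The effect differed for 0 in A549 against PC3 (0.758%) and 0 in A549 against T47D cells (2.11%) in edgeR. In those pairs 2 and 3 genes had an unadjusted p under 0.05.

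The normoxic level differed between lines for 10 of 10 genes, where 93.8% of all genes did. By pair of lines, 10 genes differed between HCT-116 and T47D cells (69% of all genes), 9 between PC3 and T47D (68.1%), 8 between A549 and HCT-116 (65%), 7 between HCT-116 and PC3 (66%), 6 between A549 and PC3 (60.5%) and 5 between A549 and T47D cells (67.7%).

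The genes most like BHLHE40, BHLHE41, PER1 and CLOCK over the 24 libraries were searched among 11270 genes with a mean log2 CPM over 1, by Pearson's r of log2 CPM. They describe the libraries, since the 24 points share 4 lines and 2 states. For BHLHE40 the closest were MAPK7 (0.947), ZFP64 (0.939) and TMCC1 (0.929). For BHLHE41 they were CYB5R2 (0.971), DVL1 (0.97) and TNFRSF21 (0.969), for PER1 PIM3 (0.958), APBB2 (0.949) and JOSD1 (0.946), and for CLOCK YES1 (0.979), USP4 (0.973) and SEMA7A (0.972).

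Other clock genes were read from the same tests in 3 lists. The first holds 6 paralogs and genes of the second loop, in which ROR receptors activate and NR1D receptors repress ARNTL. Of its members tested, 2 of 4 were upregulated in A549, 2 of 3 in HCT-116, 2 of 4 in PC3 and 1 of 5 in T47D cells, beside 17.6%, 23.3%, 16.6% and 6.55% of all genes, and neither edgeR nor DESeq2 called any lower. NR1D1, the paralog of NR1D2, had the largest rise in HCT-116 cells, from 25.99 ± 1.694 to 107.5 ± 59.2 CPM (SD, n = 3), a log2 fold change of 1.92 (SE 0.306, adjusted p = 0.000322), and it rose in A549 cells by 0.91 (SE 0.175, adjusted p = 0.00239). Per kb, NR1D2 exceeded NR1D1 1.74 to 2.43 times in HCT-116 normoxia and was 0.309 to 0.64 times its level in hypoxia. RORA had the largest rise in A549 (1.07, SE 0.347, adjusted p = 0.0307), PC3 (2.64, SE 0.614) and T47D cells (3.30, SE 0.549, adjusted p = 0.00308). Its counts were low, with 10 normoxic and 83 hypoxic counts in PC3 cells, summed over 3 libraries each, and 62 and 708 counts in T47D cells, and it was not tested in HCT-116 cells. RORA had 1 to 6 counts in each normoxic and 21 to 40 in each hypoxic library of PC3 cells. It passed the filter there only through the hypoxic group, so its test in that line is not given as support. RORA is still 1 of the 2 genes in the PC3 count. The other was NPAS2, named after its values were seen (0.27, SE 0.089, adjusted p = 0.0403). RORA is also the 1 of 5 in T47D cells, where normoxic libraries held 8 to 34 counts and hypoxic libraries 99 to 361. The library of 8 counts lay under the filter, so that test is not given as support either.

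The second list holds the PAR bZIP factors DBP, TEF and HLF, clock outputs that bind D-boxes, and NFIL3, which represses through the same sites. Its upregulated genes numbered 2 of 4 tested in A549, 3 of 4 in HCT-116, 3 of 3 in PC3 and 4 of 4 in T47D cells, beside the same shares of all genes, and neither edgeR nor DESeq2 called any lower. Its median was 0.84, 0.85, 0.59 and 1.07 on the log2 scale in that order, beside -0.01, -0.03, -0.01 and -0.02 over all genes. DBP had the largest rise in A549 (1.26, SE 0.315, adjusted p = 0.00915), HCT-116 (1.48, SE 0.412, adjusted p = 0.00949) and PC3 cells (0.66, SE 0.195, adjusted p = 0.0288), and it rose by 1.26 (SE 0.323, adjusted p = 0.0254) in T47D cells. The libraries of DBP overlapped in HCT-116 cells, at 6.20 to 16.2 CPM in normoxia and 12.7 to 50.8 CPM in hypoxia. HLF had the largest rise in T47D cells (1.89, SE 0.586, adjusted p = 0.04995), on 26 normoxic and 112 hypoxic counts. Its libraries held 6 to 10 counts in normoxia and 26 to 46 in hypoxia. The library of 6 counts lay under the filter of 10 counts at median depth, so HLF passed it only with the hypoxic group. Its test in T47D cells is not given as support, although HLF is part of the 4 of 4 and of the median of 1.07 there. NFIL3, which was named after its values were seen, rose in all 4 lines, by 0.93 in A549 (adjusted p = 0.000626), 0.94 in HCT-116 (adjusted p = 0.00188), 0.59 in PC3 (adjusted p = 0.013) and 0.88 in T47D cells (adjusted p = 0.0188).

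The third list holds 18 kinases, ubiquitin ligases and other regulators of the clock proteins. Of those tested, 4 of 18 were upregulated and 4 downregulated in A549, 9 and 3 of 16 in HCT-116, 4 and 3 of 17 in PC3, and 3 and 0 of 17 in T47D cells. Over all genes the shares were 17.6% and 17.8% in A549, 23.3% and 27% in HCT-116, 16.6% and 15.7% in PC3, and 6.55% and 6.69% in T47D cells, so that those of the list in A549 and PC3 cells were near the background. TIPIN, the partner of TIMELESS at replication forks, had the largest fall in A549 (-0.91, SE 0.138, adjusted p = 0.000605), HCT-116 (-1.44, SE 0.243, adjusted p = 0.00046) and PC3 cells (-1.05, SE 0.175, adjusted p = 0.00376). In T47D cells its log2 fold change was -0.68 (adjusted p = 0.0656 in edgeR, 0.0479 in DESeq2 and 0.0288 with the replicate block). CIART, a repressor of CLOCK and ARNTL activity, had the largest rise in A549 (1.81, SE 0.405, adjusted p = 0.00523) and T47D cells (2.047, SE 0.211, adjusted p = 8.075e-05), from 3.996 ± 0.231 to 17.5 ± 1.19 CPM (SD, n = 3) in the latter. In A549 cells CIART was low, with 13 to 16 counts in each normoxic and 42 to 52 in each hypoxic library. It stayed within its spread in PC3 cells (0.01, SE 0.154), which had 9.44 ± 1.36 CPM in normoxia. SIAH2, a ubiquitin ligase, rose most in HCT-116 cells (1.25, SE 0.215, adjusted p = 0.000502), and GSK3B, a kinase of clock proteins, in PC3 cells (0.58, SE 0.128, adjusted p = 0.00934).

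**Figure D5:**
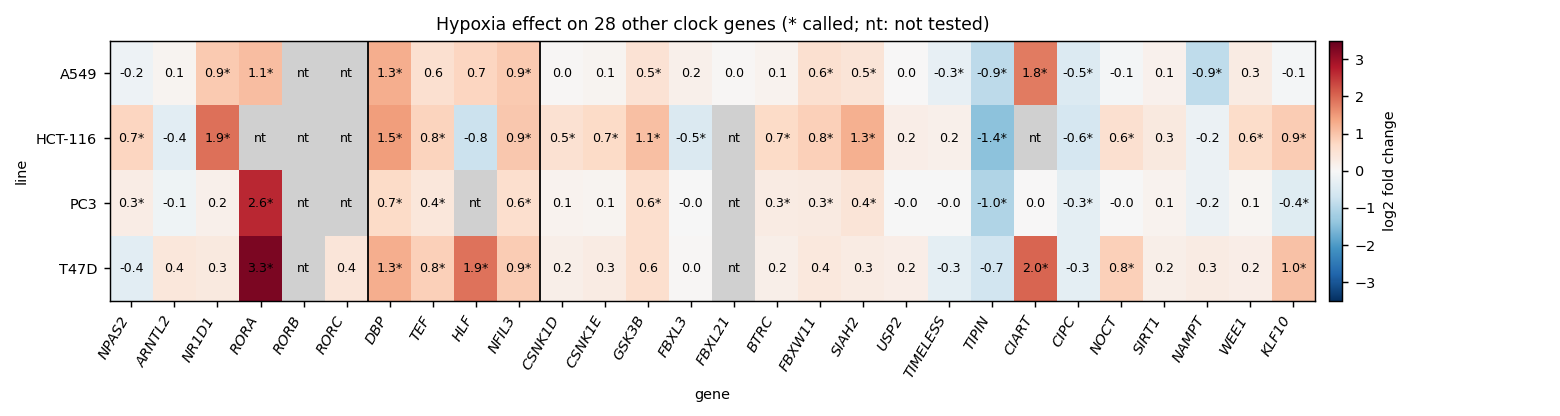
Log2 fold change of hypoxia over normoxia in each line for 28 other clock genes, in 3 lists divided by black lines, with an asterisk for genes called and nt for genes not tested. DBP and NFIL3 are upregulated in all 4 lines, and TIPIN is the largest fall in A549, HCT-116 and PC3 cells.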

How the data were processed

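Polyadenylated RNA of 24 libraries (4 lines, 2 oxygen states, 3 libraries per group) was analyzed, and groups and replicate numbers came from the sample labels. Per the labels and the submitters' processing notes, the authors trimmed reads with Trim Galore 0.3.3, aligned them to GRCh37 with HISAT2 2.05, removed fragments without a unique position with Picard 2.0.1 and counted UCSC genes with HTSeq 0.5.4p3 (intersection-strict). Deposited files hold whole counts per gene symbol without normalization. The library kit was directional, but the strand setting of the counting is not given in the sources used here, so genes with an overlapping partner on the opposite strand are uncertain. Removal of non-unique fragments lowers counts of genes with close copies.

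Computed here, tests were made in edgeR 4.0.16 (R 4.3.3) with filterByExpr, TMM scaling and glmQLFTest, in a fit per line, with Benjamini-Hochberg adjustment over all genes tested and two-sided calls where the adjusted p was under 0.05 and the change over 1.2 times. Effects and normoxic levels were compared between lines in 1 fit of all libraries. CPM were scaled by TMM over all 24 libraries, log2 CPM used a prior count of 2, and CPM per kb used the length of the Ensembl canonical transcript in GENCODE on GRCh37. Totals ranged from 22698584 to 62850747 counts, and a floor of 3 counts and the counting interval cover counting error only, since reads without molecular identifiers are not independent molecules. Same-numbered libraries were checked for pairing by the correlation of their deviations from the group means. All 3 pairs exceeded 0.1 in T47D cells (0.159, 0.278 and 0.243) and not in the other lines. The best match of a hypoxic library had its own number for 3 of 3 in PC3, 2 in HCT-116, 2 in T47D and 1 in A549 cells. These readings differ, so pairing is not settled in any line. Calls come from the unpaired fits, with the replicate block as an alternative.

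Every clock gene is named, and from each other list the largest rise and fall among called genes of each line. The genes and lists were chosen with earlier results of these data known. Promoter windows and motifs came from the RefSeq table and were counted on both strands. Alternatives were DESeq2 1.42.0, RLE size factors, library totals, the replicate block, no filter, a minimum mean count of 50, 1 fit of all libraries, an adjusted p under 0.01, a fold change over 1.5 and each library left out. The tests were checked on simulated counts with known changes. Libraries of other lines and the binding data of the study were not analysed here.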

Additional observations from a re-analysis of the deposited data

Results flagged for a closer look

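The size of the hypoxia effect differed between the 4 lines for 4 of the 10 genes, by the interaction test in edgeR over all 24 libraries. For BHLHE40 the adjusted p was 5.397e-07, with log2 fold changes of 1.45 in A549, 4.61 in HCT-116, 1.76 in PC3 and 1.06 in T47D cells. Its hypoxic libraries lay above all normoxic ones in each line. For BHLHE41 the adjusted p was 0.00336 (0.87, 2.21, 0.44 and 2.73 in the same order, the last on 10 normoxic counts), and for PER1 it was 0.00351 (0.13, 2.09, 0.65 and 0.41). For ARNTL it was 0.0312 (-0.37, -0.28, 0.60 and 0.13), where PC3 cells alone had a call. Without the libraries of replicate 2, BHLHE40 alone passed. Groups of 3 libraries were too small for a test of outlying samples.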

How the results depend on the processing

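Most effects kept their direction and side of the threshold, with 323 of 358 values unchanged in both respects under settings other than leaving out a library and 204 of 240 with a library left out. Depth limits BHLHE41 in T47D cells most, with 10 normoxic counts. Directions turned only for values that were not called. PER2 in A549 cells was -0.04 with library totals, and CRY2 was 0.021 in HCT-116 cells with no filter, 0.064 there and 0.01 in PC3 cells in 1 fit of all libraries. With a library left out, log2 fold changes ranged from -0.001 to 0.349 for PER1 and from -0.278 to 0.306 for PER2 in A549 cells, from -0.068 to 0.112 for CRY2 in HCT-116 cells, and from -0.48 to 0.131 for PER2 and from -0.266 to 0.096 for PER3 in T47D cells.

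The number of clock genes called higher in A549 cells was 1 in place of 2 in 1 fit of all libraries, at an adjusted p under 0.01 and at a fold change over 1.5, and the number lower was 2 in place of 1 with library totals. In HCT-116 cells 3 in place of 5 were higher at an adjusted p under 0.01, and 0 in place of 2 were lower with no filter or at an adjusted p under 0.01, where 2 had an unadjusted p under 0.05 and DESeq2 called 2. In PC3 cells 2 in place of 4 were higher in 1 fit of all libraries or at an adjusted p under 0.01, and of 2 lower genes 1 was left with RLE size factors, no filter or the replicate block, and 0 in 1 fit of all libraries, at an adjusted p under 0.01 or at a fold change over 1.5, with 0, 2 and 2 genes at an unadjusted p under 0.05 and 2 called by DESeq2. In T47D cells 2 in place of 1 were higher with DESeq2 or in 1 fit, 0 at an adjusted p under 0.01, and 1 in place of 0 was lower with DESeq2, no filter, the replicate block or 1 fit. The cause was not tested. With each library left out, counts higher ranged from 1 to 2 in A549, 2 to 4 in PC3 and 0 to 1 in T47D cells. Counts lower ranged from 1 to 2, 0 to 1, 0 to 2 and 0 to 1 in A549, HCT-116, PC3 and T47D cells. The test between lines was refitted only without all libraries of a replicate number, and 1 to 3 genes then differed.

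The replicate block ended the call of CRY1 in PC3 cells (-0.30, adjusted p = 0.0504) and gave that of CRY1 in T47D cells (-0.70, adjusted p = 0.0243). In PC3 cells 1 of 3 same-numbered correlations exceeded 0.1, though 3 of 3 hypoxic libraries matched best with their own number. The block changed no other call of the 10 genes within a line. With the block, 6 in place of 4 genes differed between lines. Scaling to library totals shifted all genes together, to a median of -0.13 in A549 and -0.12 in T47D cells on the log2 scale.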

Other observations

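HES and HEY factors, relatives of BHLHE40 in the basic helix-loop-helix family, had no member called lower by edgeR. Of those tested, 3 of 7 were upregulated in A549, 2 of 6 in HCT-116, 2 of 6 in PC3 and 1 of 6 in T47D cells, beside 17.6%, 23.3%, 16.6% and 6.55% of all genes. HES4, which was named after its values were seen, was called lower in PC3 cells by DESeq2 (adjusted p = 0.0394) and not by edgeR (log2 fold change -0.40, SE 0.147, adjusted p = 0.0602). HES2 had the largest rise in A549 cells (log2 fold change 1.15, SE 0.358, adjusted p = 0.0266 in edgeR), and HES1, a Notch target, in HCT-116 cells (1.61, SE 0.361, adjusted p = 0.00261). HEY1, another Notch target, had the largest rise in PC3 (0.85, SE 0.168, adjusted p = 0.00642) and T47D cells (2.21, SE 0.62, adjusted p = 0.0361). In T47D cells it rose from 0.302 ± 0.265 to 1.47 ± 0.775 CPM (SD, n = 3). There HEY1 was the gene in the count of 1 of 6, with 8 to 38 counts in each normoxic library. A library of 8 counts lay under the filter of 10 counts at median depth, so that test is not given as support.

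Of the HIF subunits, relatives of CLOCK and ARNTL, HIF1A fell in A549 cells by 1.36 on the log2 scale (SE 0.115, adjusted p = 9.686e-06) and in T47D cells by 0.72 (SE 0.196, adjusted p = 0.0322). EPAS1, which encodes HIF-2 alpha, rose most in HCT-116 cells, from 13.4 ± 0.738 to 60.3 ± 23.0 CPM (log2 fold change 2.049, SE 0.253, adjusted p = 0.000108). EPAS1 also rose in A549 (0.54, adjusted p = 0.00765) and PC3 cells (0.52, adjusted p = 0.0255).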
